A study of Rattus norvegicus with 4 samples.

Results

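The lecticans neurocan (Ncan), brevican (Bcan) and versican (Vcan), the link protein Hapln1, the glypicans Gpc1, Gpc2, Gpc4 and Gpc6, the syndecan Sdc2 and agrin (Agrn) were followed in cultured embryonic rat cortical cells. These 10 genes were chosen by symbol from the 18755 genes listed, as proteoglycans of developing brain matrix and neuronal surfaces with a link protein, and all 10 were found. Primary cells from the cerebral cortex of SD rats at embryonic day 16 were plated at 100000 cells per well on 1 of 4 hydrogels: SFMA, whose name carries no further letter, N-SFMA, L-SFMA or NL-SFMA. After 24 h in Neurobasal medium with B27, shared by all groups, poly(A) RNA was sequenced. The stated purpose of the series was to find out by which mechanism hydrogels with cues for adhesion between cells promote growth of neural cells. Each hydrogel had 5 parallel wells but 1 library, and neither the pooling of wells nor the meaning of the letters N and L is stated in the labels. No sorting step is described, so neurons, progenitors and other cortical cells could enter the same RNA.

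Proteoglycans are core proteins that carry long sulfated sugar chains. Lecticans carry chondroitin sulfate and bind hyaluronan at one end and tenascins at the other, and link proteins hold them on hyaluronan, which together forms the loose extracellular matrix of the brain. Glypicans, anchored to the membrane by a lipid, and syndecans, which cross it, carry mostly heparan sulfate and present growth factors and guidance proteins to their receptors. Agrin is a large heparan sulfate proteoglycan best known for organising the nerve-muscle synapse.

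Depth was 14172205 to 17553098 counted reads per library. With 1 library per hydrogel, no difference could be set against a spread between replicates, and intervals cover counting error only. FPKM is the read count scaled to gene model length and to library size, and a gene was counted as higher or lower where FPKM + 1 differed at least 1.5-fold. Genes that reached 1 FPKM in any library entered these counts, 12394 in all, among them 9 of the 10 proteoglycan and link protein genes. Neuronal markers were abundant in all 4 libraries, with a summed FPKM over 8 genes of 2782, 3747, 3014 and 2910 in the order SFMA, N-SFMA, L-SFMA, NL-SFMA, which is kept throughout. Endothelial and pericyte markers (7 genes, 1.25, 0.876, 1.08 and 1.41) and meningeal fibroblast markers (7 genes, 2.96, 2.15, 2.30 and 2.03) were near 0, and Cdh5, Kcnj8, Dcn, Lum and Foxc1 were at 0 in at least 1 library each. Microglial markers summed to 51.7, 19.0, 31.6 and 12.6 (6 genes) and erythroid markers to 546, 161, 90.8 and 69.7 (5 genes), so SFMA held the most of both. In bulk RNA, fewer cells of a type and less RNA per cell cannot be told apart.

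**Figure D1:**
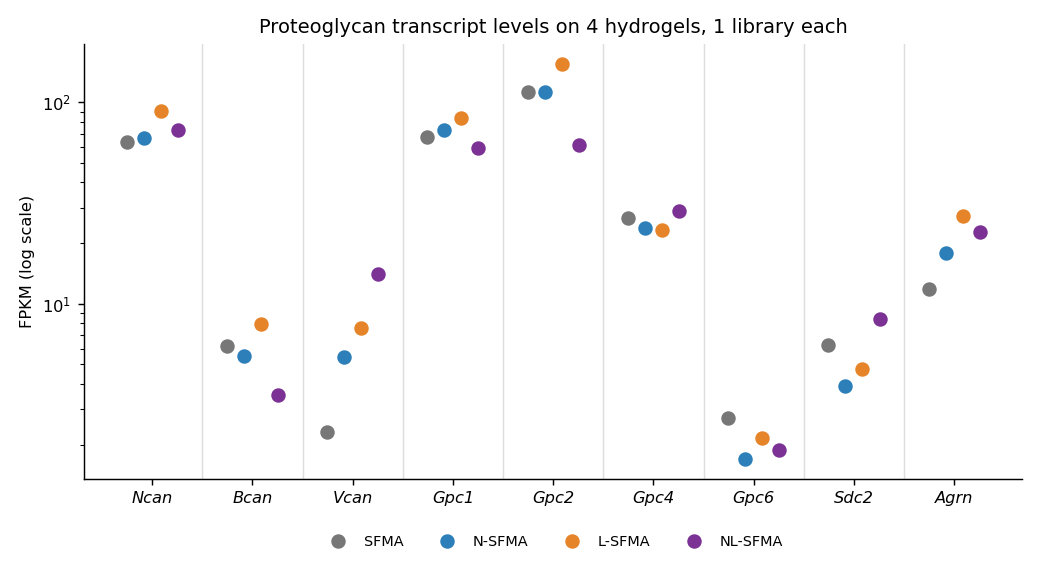
FPKM of the 9 genes that passed the filter (log axis), 1 point per library. There are no error bars because each hydrogel has 1 library. Vcan climbs from 2.30 FPKM on SFMA to 14.1 on NL-SFMA, while Gpc2, Gpc1 and Bcan are lowest on NL-SFMA.

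Gpc2 was the most abundant of the 10 genes per kilobase on SFMA, N-SFMA and L-SFMA, and Ncan on NL-SFMA. On SFMA the order of FPKM was Gpc2 (112), Gpc1 (67.2), Ncan (63.3), Gpc4 (26.8), Agrn (11.8), Sdc2 (6.23), Bcan (6.21), Gpc6 (2.72) and Vcan (2.30). Hapln1, which clamps lecticans to hyaluronan, had 0 reads on SFMA, N-SFMA and NL-SFMA and 1 read on L-SFMA. A count of 0 allows up to 3 reads, which is 0.0739 to 0.0915 FPKM for this gene. Lectican transcripts were thus present while this link protein transcript was at or under the detection floor. In the RefSeq annotation of the GRCr8 assembly each lectican gene lies next to a link protein gene, with no protein-coding gene between them: Ncan beside Hapln4, Bcan beside Hapln2 and Vcan beside Hapln1. Hapln4 reached at most 0.316 FPKM and Hapln2 at most 0.0443. The cartilage lectican Acan, which lies beside Hapln3, reached at most 0.0493 FPKM.

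Vcan, the large lectican of embryonic matrix, differed most among the 10 genes as measured. It had 499 reads and 2.30 FPKM on SFMA, 1043 reads and 5.47 FPKM on N-SFMA, 1532 reads and 7.58 FPKM on L-SFMA, and 2466 reads and 14.1 FPKM on NL-SFMA. Every step in this order was larger than counting error. Its fold of CPM (read counts scaled to library size) over SFMA was 2.38 for N-SFMA (95% counting interval 2.14 to 2.65), 3.30 for L-SFMA (2.98 to 3.66) and 6.12 for NL-SFMA (5.56 to 6.75). Ranked from the largest increase down, Vcan stood at places 130, 57 and 23 of 12394 tested genes in the 3 comparisons with SFMA. The 250 bases before its start, on the minus strand of chr2:22595956-22596205 (RefSeq, GRCr8), are shown because it differed most. Capitals mark a GC box (GGGCGG) and a CCAAT box (CCAAT), which were searched on both strands together with TATAAA and CACGTG.
Vcan upstream: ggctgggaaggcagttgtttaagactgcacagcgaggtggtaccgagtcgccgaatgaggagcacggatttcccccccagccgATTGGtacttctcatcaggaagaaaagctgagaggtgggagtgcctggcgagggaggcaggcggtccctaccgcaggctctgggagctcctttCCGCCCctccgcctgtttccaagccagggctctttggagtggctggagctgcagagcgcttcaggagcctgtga
This window holds 1 GC box, 1 CCAAT box and 12 CG dinucleotides. Of 27457 RefSeq promoter windows of this length, 32.4% hold a GC box, 34.3% a CCAAT box, 13.1% TATAAA and 5.79% CACGTG, and the median window has 6 CG dinucleotides.

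The Vcan gene model is 12368 bases long, and long genes in general were higher outside SFMA. Across the 12394 tested genes the log2 difference from SFMA correlated with log2 model length at r = 0.46, 0.53 and 0.50 for N-SFMA, L-SFMA and NL-SFMA, where genes are not independent replicates and share the SFMA library. Among the 248 tested genes with models of 10000 to 15000 bases, the median log2 difference was 0.48, 0.80 and 0.97. Vcan, at 0.97, 1.38 and 2.19, had 21, 14 and 8 of these genes above it. With the trend with length removed, its log2 difference was 0.48, 0.60 and 1.16, so it stayed past 1.5-fold on L-SFMA and NL-SFMA and not on N-SFMA. Oligodendrocyte precursors also make versican, and the summed FPKM of their 5 markers was 12.2, 5.02, 5.54 and 3.04, highest on SFMA and lowest on NL-SFMA. The defining markers Pdgfra (0.0343, 0.361, 0.258 and 0.276) and Cspg4 (0.12, 0.104, 0.0909 and 0.0175) were low in every library. Pdgfra was lowest on SFMA, against the direction of the sum, and Cspg4 was highest there. Of the 8 neuronal markers, 3 were higher and 0 lower than on SFMA by 1.5-fold in each comparison, with Dcx at 68.3, 140.4, 161 and 266 FPKM and Map2 at 24.7, 56.5, 61.1 and 98.0, while Tubb3 (1882, 2602, 1957 and 1659) and Rbfox3 (25.7, 26.5, 29.5 and 18.1) were lowest on NL-SFMA. The part of cell make-up in the Vcan difference was not tested.

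**Figure D2:**
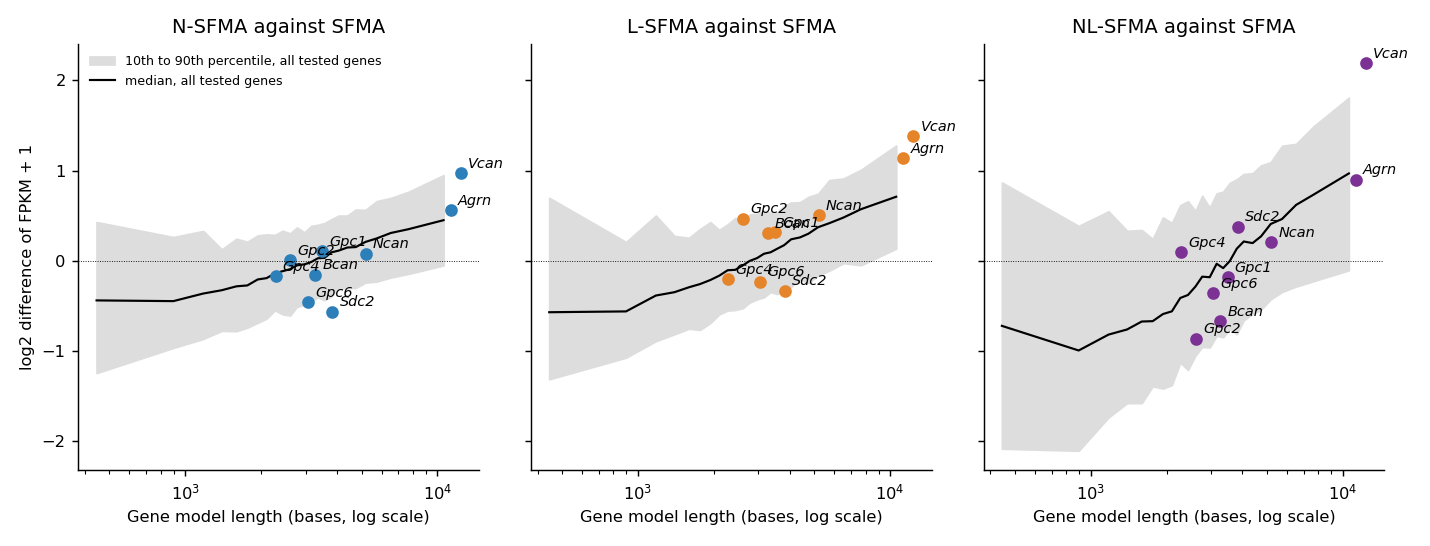
log2 difference of FPKM + 1 against gene model length (log axis) in the 3 comparisons with SFMA. The line is the median of the 12394 tested genes in length bins, the band runs from the lowest to the highest decile, and points are the 9 tested proteoglycan genes. On NL-SFMA, Vcan (2.19) lies above the level of the band's right end and Agrn (0.90) near that of the line.

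Ncan, a secreted lectican of developing neurons and glia, was the most abundant lectican in every library. It had 5782 reads and 63.3 FPKM on SFMA, 5361 and 66.8 on N-SFMA, 7690 and 90.5 on L-SFMA, and 5396 and 73.2 on NL-SFMA. L-SFMA was the highest, at 1.43-fold (1.38 to 1.48) over SFMA, and no library was past 1.5-fold from SFMA. The signs of its small differences on N-SFMA and NL-SFMA changed with the length trend removed (from 0.08 to -0.13 and from 0.21 to -0.19 on the log2 scale). Bcan, a lectican of glial cells that increases later in development, had 356, 276, 425 and 163 reads and 6.21, 5.48, 7.96 and 3.52 FPKM. Its level on NL-SFMA was 1.76-fold lower than on SFMA (1.46 to 2.14) and 2.26-fold lower than on L-SFMA (1.88 to 2.73). SFMA and N-SFMA did not differ in Bcan beyond counting error. Radial glia markers had a summed FPKM of 1548, 695, 686 and 768 over 9 genes, of which 7, 4 and 7 were lower and 0, 1 (Hes5) and 0 higher than on SFMA, and astrocyte markers (6 genes) of 25.6, 16.2, 20.2 and 21.1. Both sums were highest on SFMA, where Vim alone gave 1088 of the radial glia sum. Hes5 was at 10.5, 7.77, 18.0 and 5.84 FPKM and Nes at 17.4, 15.6, 18.3 and 14.9. Both were highest on L-SFMA and lowest on NL-SFMA, as Bcan was, and the other radial glia markers were each highest on SFMA. Among astrocyte markers, Aldh1l1 was highest on L-SFMA, Aqp4 on NL-SFMA and the others on SFMA. The part of cell make-up in the Bcan values was not tested.

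The mix of lecticans shifted with these values. Vcan made up 3.20%, 7.03%, 7.15% and 15.5% of the summed FPKM of Ncan, Bcan and Vcan over the 4 libraries. Bcan made up 8.64%, 7.04%, 7.51% and 3.88%, and Ncan 88.2%, 85.9%, 85.3% and 80.6%. The summed level was 71.8, 77.7, 106.0 and 90.8 FPKM. On SFMA there was more Bcan than Vcan per kilobase, and on NL-SFMA the order was the reverse.

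**Figure D3:**
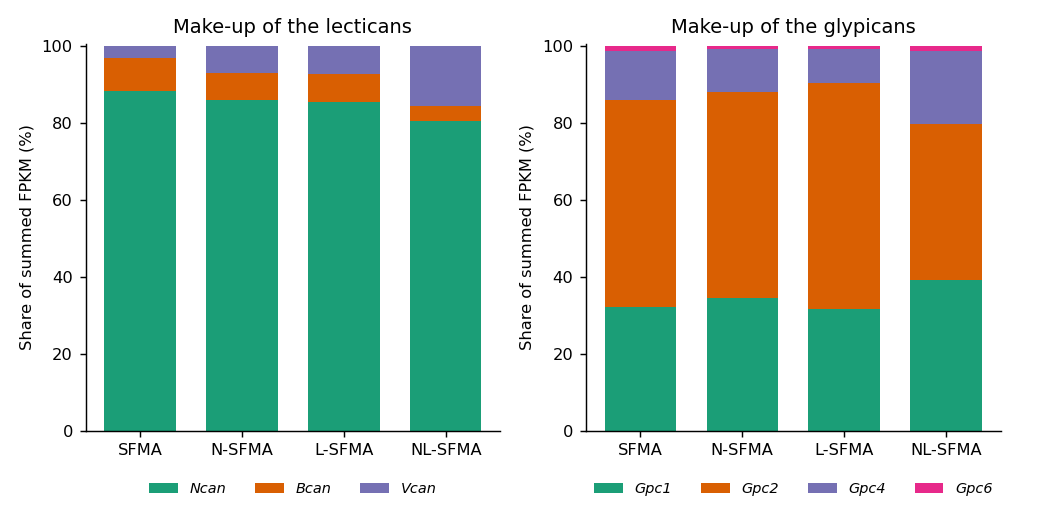
Share (%) of each gene in the summed FPKM of the lecticans (left) and of the 4 glypicans (right), 1 stacked bar per library. The Vcan share is 3.20% on SFMA and 15.5% on NL-SFMA, and the Gpc2 share is 53.7% and 40.5%.

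Gpc2, the glypican of developing neurons and growing axons, had 5140 reads and 112 FPKM on SFMA, 4550 and 113 on N-SFMA, 6632 and 155 on L-SFMA, and 2266 and 61.2 on NL-SFMA. It was 1.39-fold higher on L-SFMA than on SFMA (1.34 to 1.44) and 1.83-fold lower on NL-SFMA (1.74 to 1.93), and N-SFMA did not differ from SFMA beyond counting error (1.01-fold, 0.967 to 1.05). L-SFMA and NL-SFMA were 2.54-fold (2.42 to 2.66) apart, and with the length trend removed NL-SFMA was still below L-SFMA (a difference of -1.13 on the log2 scale). Its upstream window, on the minus strand of chr12:22397823-22398072 (RefSeq, GRCr8), is shown as the counterpart of Vcan, since the pair had the least alike profiles of the 9 tested genes. Capitals again mark GC boxes and CCAAT boxes.
Gpc2 upstream: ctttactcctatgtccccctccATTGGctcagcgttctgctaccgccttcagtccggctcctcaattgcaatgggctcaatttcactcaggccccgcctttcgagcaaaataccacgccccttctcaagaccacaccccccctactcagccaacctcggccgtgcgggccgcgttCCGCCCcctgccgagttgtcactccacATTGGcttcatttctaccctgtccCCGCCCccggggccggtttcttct
This window holds 2 GC boxes, 2 CCAAT boxes and 16 CG dinucleotides, so both motifs occur upstream of both genes. RefSeq windows were matched for 7 of the 10 genes, all but Gpc1, Gpc6 and Sdc2.

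Gpc1, a glypican of neurons, had 4119, 3922, 4784 and 2930 reads and 67.2, 72.8, 83.8 and 59.2 FPKM. L-SFMA was again the highest and NL-SFMA the lowest, 1.42-fold (1.35 to 1.48) apart, and no hydrogel was past 1.5-fold from another. Gpc4, a glypican of neural progenitors and astrocytes that promotes synapse formation, had 1073, 835, 864 and 932 reads. Its FPKM of 26.8, 23.7, 23.2 and 28.8 spanned 1.24-fold (1.13 to 1.37), and neither NL-SFMA and SFMA nor N-SFMA and L-SFMA differed beyond counting error. Gpc6, the closest relative of Gpc4, had 146, 80, 108 and 82 reads and 2.72, 1.70, 2.16 and 1.89 FPKM. SFMA exceeded N-SFMA by 1.60-fold (1.21 to 2.13), and no neighbours in its order of levels differed beyond counting error. Gpc3 (0.639 to 0.95 FPKM) and Gpc5 (0.0913 to 0.174) were under the filter.

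The 4 glypicans summed to 208.8, 211.1, 264.6 and 151.1 FPKM, highest on L-SFMA and lowest on NL-SFMA. Gpc2 made up 53.7%, 53.5%, 58.7% and 40.5% of this sum, Gpc1 32.2%, 34.5%, 31.7% and 39.2%, and Gpc4 12.8%, 11.2%, 8.76% and 19.1%. Gpc2 and Gpc1 were thus nearly equal on NL-SFMA.

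Sdc2, a syndecan of dendritic spines and of many non-neuronal cells, had 418 reads and 6.23 FPKM on SFMA, 231 and 3.91 on N-SFMA, 298 and 4.77 on L-SFMA, and 456 and 8.41 on NL-SFMA. N-SFMA was 1.59-fold lower than SFMA (1.35 to 1.88) and L-SFMA 1.31-fold lower (1.12 to 1.52), while NL-SFMA was 1.35-fold higher (1.18 to 1.55). NL-SFMA was 2.15-fold (1.83 to 2.53) above N-SFMA and 1.76-fold (1.52 to 2.05) above L-SFMA. The other syndecans had other orders. Sdc3, a syndecan of axons, was at 59.2, 85.2, 92.4 and 72.2 FPKM, Sdc1 at 24.5, 18.1, 20.9 and 14.6, and Sdc4 at 1.62, 1.36, 0.779 and 0.522.

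Agrn had 2331 reads and 11.8 FPKM on SFMA, 3109 and 17.9 on N-SFMA, 5012 and 27.2 on L-SFMA, and 3644 and 22.8 on NL-SFMA. The other 3 libraries were above SFMA, by 1.52-fold (1.44 to 1.60), 2.31-fold (2.20 to 2.43) and 1.94-fold (1.84 to 2.04). Its gene model has 11280 bases, and of the 248 genes with models of 10000 to 15000 bases 110, 51 and 138 stood above it in the 3 comparisons. With the length trend removed, its log2 difference from SFMA was 0.10, 0.40 and -0.08, so none was past 1.5-fold and the sign on NL-SFMA changed. Endothelial cells also make agrin, and their markers were near 0 in all 4 libraries. The agrin receptor gene Lrp4 was at 4.05, 2.38, 4.05 and 4.15 FPKM and its partner Musk at most 0.0121. Dystroglycan (Dag1), which also binds agrin, was at 22.1, 28.2, 31.3 and 30.2 FPKM.

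By the 1.5-fold rule on FPKM + 1, 1 of the 9 tested genes (Vcan) was higher and 0 lower on N-SFMA than on SFMA, where 7.24% of all tested genes were higher and 10.7% lower. On L-SFMA, 2 (Vcan and Agrn) were higher and 0 lower, against 14.8% and 11.1% of all tested genes. On NL-SFMA, 2 (Vcan and Agrn) were higher and 2 (Bcan and Gpc2) lower, against 21.6% and 29.3%. The added 1 FPKM matters on N-SFMA: by CPM, Agrn was 1.52-fold higher there than on SFMA, Sdc2 1.59-fold lower and Gpc6 1.60-fold lower. With a pseudocount of 0.1 FPKM, 2 of the 9 genes were higher and 2 lower on N-SFMA, beside 1430 and 1766 of all 12394 tested genes. The median log2 difference of the 9 genes was 0.01, 0.32 and 0.10, beside -0.02, 0.05 and -0.10 over all tested genes. On NL-SFMA the share of the 9 genes past the limit was thus near that of all genes. With the length trend removed, 0 of 9 were higher and 1 (Sdc2) lower on N-SFMA, against 5.79% and 6.78% of all tested genes. On L-SFMA 1 (Vcan) was then higher and 0 lower, against 8.12% and 7.46%, and on NL-SFMA 1 (Vcan) was higher and 2 (Bcan and Gpc2) lower, against 19.1% and 18.9%.

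The hydrogels other than SFMA were also set against each other, in comparisons that share libraries with those above. Between L-SFMA and N-SFMA, 0 of the 9 genes were past 1.5-fold, where 3.00% of all tested genes were higher on L-SFMA and 1.09% lower. The largest of these differences was Agrn, 1.52-fold (1.46 to 1.59) higher on L-SFMA by CPM and 0.58 on the log2 scale of FPKM + 1, just under the limit. NL-SFMA against N-SFMA had Vcan (2.57-fold, 2.39 to 2.77) and Sdc2 higher and Gpc2 lower (1.84-fold, 1.75 to 1.94), 2 and 1 of 9 genes against 12.5% and 18.0% of all tested genes. NL-SFMA against L-SFMA had Vcan (1.86-fold, 1.74 to 1.98) and Sdc2 higher and Gpc2 and Bcan lower, 2 and 2 of 9 genes against 7.23% and 20.9%. With the length trend removed, the Vcan difference between NL-SFMA and L-SFMA was 0.56 on the log2 scale, under the limit.

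**Figure D4:**
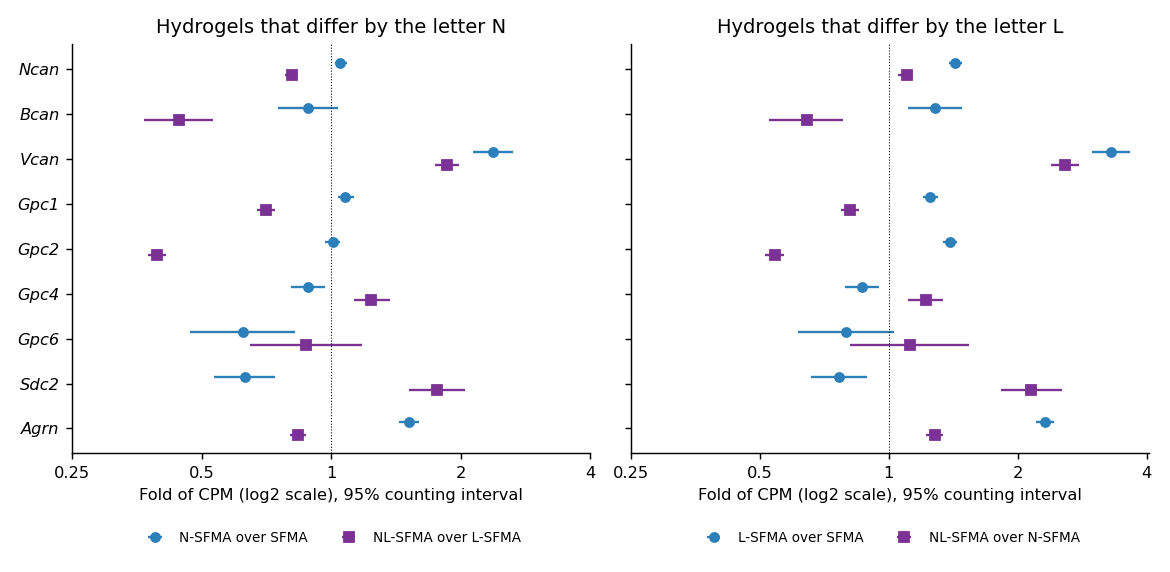
Fold of CPM (log2 axis) with 95% counting intervals between hydrogels whose names differ by the letter N (left) or L (right), without the other letter (circles) and with it (squares). Vcan lies above 1 in all 4 pairs, and Sdc2 lies below 1 without the other letter and above 1 with it.

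Reading the names as 2 factors, N and L, allowed a test over all 4 libraries. An additive model of both letters was fitted to the counts of 13737 genes with edgeR's quasi-likelihood test, on the assumption that a letter stands for the same change in both names that hold it. Its 1 residual degree of freedom is the departure from additivity, and no replicate culture enters it. Vcan rose with N by 1.15 on the log2 scale (SE 0.25, edgeR adjusted p = 0.0011) and with L by 1.53 (SE 0.26, edgeR adjusted p = 2.1e-06), and was higher in both pairs of libraries for each letter. Agrn rose with L by 0.76 (SE 0.26, edgeR adjusted p = 0.033), again in both pairs, and missed the threshold with DESeq2's size factors in edgeR (adjusted p = 0.055). None of the other 7 tested genes passed for either letter. The nearest were Gpc2 with N (-0.59, SE 0.27, edgeR adjusted p = 0.17) and Bcan with N (-0.60, SE 0.30, edgeR adjusted p = 0.22). Of all genes in this fit, 2.90% rose and 3.54% fell with N, and 7.37% rose and 6.06% fell with L.

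With the length trend entered as an offset in edgeR, 0 of the 9 genes passed for either letter. Vcan had 0.65 for N (edgeR adjusted p = 0.19, unadjusted p = 0.011) and 0.70 for L (edgeR adjusted p = 0.13, unadjusted p = 0.0066) in that fit, the only one of the 9 genes with an unadjusted p under 0.05. Agrn had -0.01 for L (edgeR adjusted p = 0.99). Of all genes, 0.349% rose and 0.218% fell with N, and 1.25% rose and 1.02% fell with L. The calls on Vcan and Agrn thus depend on whether the trend with length is left in.

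As measured, several of the 9 genes departed from additivity beyond counting error. With 1 library per hydrogel, this departure was not tested against variation between cultures. The fold for N with L divided by the fold for N without L was 2.81 for Sdc2 (2.26 to 3.49, counting error only) and 1.40 for Gpc4 (1.23 to 1.60). It was 0.391 for Gpc2 (0.368 to 0.416), 0.501 for Bcan (0.395 to 0.637), 0.552 for Agrn (0.516 to 0.592) and 0.652 for Gpc1 (0.612 to 0.695). For Vcan it was 0.78 (0.689 to 0.884), so the fold for N was somewhat smaller with L than without. On the log2 scale of FPKM + 1 the departure was 1.26 for Sdc2, above the highest decile of all tested genes (0.55), and -1.34 for Gpc2, -0.83 for Bcan and -0.81 for Agrn, below the lowest (-0.78). The other 5 genes lay between these deciles, with Vcan at -0.16, near the median of -0.13. These deciles are of values with the length trend left in. With that trend removed, the log2 differences for N without and with L were -0.63 and 0.76 for Sdc2 and 0.09 and -1.13 for Gpc2. For Bcan they were -0.16 and -0.87, and for Agrn 0.10 and -0.48.

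Profiles over the 4 libraries were compared by the distance between centred log2(FPKM + 1) values. Among the 9 genes the closest pairs were Bcan and Gpc2 (0.29), Ncan and Gpc1 (0.34) and Gpc4 and Gpc6 (0.38), and the farthest was Vcan and Gpc2 (2.24). The gene closest to Vcan among 8656 expressed genes was Myo9a, an unconventional myosin gene with a model of 10221 bases, at 2.34, 5.17, 7.44 and 13.6 FPKM (distance 0.06). Next came the deubiquitinase gene Usp34 (0.10, 11414 bases), so both have long models. Gpc2 was closest to the kinase gene Lmtk3, at 33.4, 35.2, 46.2 and 17.9 FPKM (0.06), and to Ankrd16 (0.11). Bcan was closest to Trim8 and Fam219b (0.04 each), Ncan to Fbxo42 and Fnbp4 (0.06 each), Gpc1 to Fbxo10 (0.02) and Per1 (0.04), Gpc4 to Me2 and Eif1a (0.03 each) and Gpc6 to Paox (0.04) and Crlf3 (0.05). Sdc2 was closest to the acetyltransferase gene Naa50 (0.08) and to Desi2 (0.09), and Agrn to Baz2a and Trim67 (0.08 each). With 4 libraries such likeness is common: 1386 of the 8656 expressed genes had r above 0.95 with Vcan, and 93 with Sdc2.

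The other genes of proteoglycan biology were read from 9 lists by the same 1.5-fold rule, against the same shares of all tested genes. Some calls follow in part from the filter of 1 FPKM in any library. Tnr, Hspg2, Dsel (0.688 FPKM), Hs6st3 (0.929) and Has3 were under 1 FPKM on SFMA and entered through hydrogels where they were higher. Sdc4, Chst14, Dse and Hs3st2 (0.454 on N-SFMA) were under 1 FPKM where they were counted as lower. The shares of all tested genes carry the same filter. Of 6 other lecticans, link proteins and tenascins, 2 were tested, with 0 higher and 1 lower on N-SFMA, 0 higher and 0 lower on L-SFMA, and 1 higher and 0 lower on NL-SFMA. Tenascin-C (Tnc), a lectican partner that radial glia make, was at 8.83, 3.85, 9.63 and 6.22 FPKM, lowest on N-SFMA. Tenascin-R (Tnr) was at 0.678, 1.10, 1.32 and 3.05 FPKM. Tnc was also past the limit on NL-SFMA once the length trend was removed (-1.13 on the log2 scale). Of the 3 tested other glypicans and syndecans, the counts were 0 higher and 0 lower on N-SFMA, 1 higher and 0 lower on L-SFMA, and 0 higher and 2 lower on NL-SFMA, with Sdc3 higher on L-SFMA and Sdc1 and Sdc4 lower on NL-SFMA. Removal of the length trend made the counts 0 and 0, 1 and 0, and 0 and 0, higher and lower in that order, so neither Sdc1 nor Sdc4 was then past the limit.

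Other proteoglycans of brain and matrix had 7 tested genes of 14, with 1 higher and 0 lower on N-SFMA, 1 higher and 0 lower on L-SFMA, and 3 higher and 2 lower on NL-SFMA. Spock1, a testican, was the gene higher in all 3, at 10.7, 16.6, 18.4 and 17.1 FPKM, and stayed so with the length trend removed (0.77, 0.89 and 1.13 on the log2 scale). Ptprz1, a chondroitin sulfate receptor phosphatase of radial glia, was at 20.0, 17.7, 26.8 and 36.8 FPKM, and its log2 difference on NL-SFMA went from 0.85 to 0.14 with that trend removed. Cspg5, a membrane chondroitin sulfate proteoglycan of neurons, was at 20.3, 14.9, 19.4 and 8.49 FPKM, lowest on NL-SFMA as Bcan and Gpc2 were. The remaining calls on NL-SFMA were Hspg2 (perlecan), at 0.997, 1.06, 1.55 and 2.00 FPKM, and the hyaluronan receptor gene Cd44, at 3.50, 2.23, 2.32 and 1.85. Hspg2, with a model of 14289 bases, went from 0.59 to -0.55, with the length trend removed, which reverses its direction, and Cd44 stayed lower (-0.87).

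Receptors for chondroitin sulfate and proteoglycans had 8 tested genes of 9, with 1 higher and 0 lower on N-SFMA, 3 higher and 0 lower on L-SFMA, and 2 higher and 2 lower on NL-SFMA. Among the receptor phosphatases, Ptprs was the most abundant, at 126, 154, 210.4 and 126 FPKM, and Ptprd was at 2.20, 4.66, 6.67 and 9.73 FPKM with a model of 11689 bases. Ptprd had the same order as Vcan. Ptprf, the other gene higher on L-SFMA and NL-SFMA, was at 21.6, 28.2, 37.3 and 33.9 FPKM. Without the length trend, the higher and lower counts were 0 and 1, 0 and 0, and 1 and 2, with Ptprd higher and Ptprs and Lrp4 lower on NL-SFMA, and on L-SFMA Ptprs (0.20), Ptprf (0.28) and Ptprd (0.51) were all under the limit. The Nogo receptor gene Rtn4r, at 18.3, 15.5, 18.6 and 9.18 FPKM, and its relative Rtn4rl2, at 31.1, 28.7, 36.9 and 17.6, were lowest on NL-SFMA. Neither was past 1.5-fold from SFMA there once that trend was removed (-0.46 and -0.15 on the log2 scale).

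The enzymes that build the sugar chains differed within each list. Linker synthesis and sulfate supply had 8 tested genes of 10, with 0 higher and 0 lower on N-SFMA, 0 higher and 0 lower on L-SFMA, and 2 higher and 2 lower on NL-SFMA. The lower genes were the linker galactosyltransferase gene B4galt7, at 28.9, 22.7, 26.6 and 10.1 FPKM, and the linker glucuronyltransferase gene B3gat3, at 32.4, 23.9, 25.1 and 10.1, and both stayed lower on NL-SFMA with the length trend removed (-0.80 and -1.93). The higher genes were B3galt6, which adds another linker sugar (9.44, 13.2, 11.6 and 14.8 FPKM), and the linker kinase gene Fam20b (11.8, 14.9, 16.4 and 19.9 FPKM). B3galt6 stayed higher there once that trend was removed (1.06) and Fam20b did not (0.33). The higher and lower counts of this list were then 1 and 1, 1 and 1, and 2 and 2, with B3galt6 (0.61) higher and B3gat3 (-0.60) lower on N-SFMA. On L-SFMA the lower gene was again B3gat3 (-0.68). Chondroitin sulfate synthesis had 12 tested genes of 16, with 0 higher and 2 lower on N-SFMA, 0 higher and 0 lower on L-SFMA, and 2 higher and 1 lower on NL-SFMA. Csgalnact2, which starts chondroitin sulfate chains, was at 3.42, 5.38, 5.45 and 7.06 FPKM, lowest on SFMA, and stayed higher on NL-SFMA with the length trend removed (0.81). The other higher gene there was Dsel, which reversed with that trend removed (from 0.79 to -0.21). The dermatan sulfate gene Chst14, at 2.15, 0.471, 1.33 and 0.513 FPKM, was lower on N-SFMA and NL-SFMA, and Dse (1.56, 0.675, 0.928 and 1.88 FPKM) on N-SFMA. With the length trend removed, both stayed lower on N-SFMA (-0.78 and -0.75), and Chst14 was under the limit on NL-SFMA (-0.31). The higher and lower counts of this list were then 0 and 2, 0 and 1, and 3 and 1, in part from other genes.

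Heparan sulfate synthesis and editing had 16 tested genes of 22 found, with 0 higher and 1 lower on N-SFMA, 3 higher and 0 lower on L-SFMA, and 5 higher and 0 lower on NL-SFMA. Over all tested genes, 21.6% were higher and 29.3% lower on NL-SFMA. The median log2 difference of the list was 0.12, 0.35 and 0.38, beside -0.02, 0.05 and -0.10 over all tested genes. It was 0.37 on NL-SFMA with the length trend removed. In that setting the higher and lower counts were 1 and 2, 1 and 1, and 4 and 1: on NL-SFMA, Extl3 (0.14) and Glce (0.55) were then under the limit, Hs3st4 (0.79) was higher and Hs3st1 (-1.35) lower. The polymerase genes Ext1 (9.92 to 11.2 FPKM) and Ext2 (26.3 to 27.2 FPKM) stayed within narrow ranges. The sulfotransferase gene Ndst1, at 11.8, 13.9, 17.5 and 21.4 FPKM, and the epimerase gene Glce, at 5.12, 6.07, 7.68 and 10.2, were highest on NL-SFMA. The 3 other genes higher there were Extl3, Hs6st2 and Hs6st3, and Hs3st2 was the gene lower on N-SFMA. The sulfatase gene Sulf2 was at 7.44, 11.2, 12.8 and 9.77 FPKM, highest on L-SFMA, where Extl3 and Hs6st3 were also higher. The carriers of this chain went different ways on NL-SFMA: Gpc1 and Gpc2 were at their lowest and Sdc2 at its highest. Gpc4 was also at its highest, but not beyond counting error from SFMA (1.08-fold, 0.984 to 1.18). Agrn was above SFMA as measured (0.90 on the log2 scale) and not with the length trend removed (-0.08).

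Hyaluronan genes had 4 tested of 7 found, with 0 higher and 0 lower on N-SFMA, 2 higher and 0 lower on L-SFMA, and 2 higher and 1 lower on NL-SFMA. The hyaluronan synthase gene Has3, at 0.636, 1.03, 1.58 and 2.85 FPKM, and Cemip2, whose product binds or cleaves hyaluronan, at 3.23, 4.45, 5.99 and 5.70, were the higher genes, and the hyaluronidase gene Hyal2, at 30.3, 26.4, 25.1 and 18.0, the lower one. Removal of the length trend made the higher and lower counts 0 and 0, 1 and 0, and 1 and 0, with Cemip2 (0.04) and Hyal2 (-0.14) under the limit on NL-SFMA. Genes of proteoglycan cleavage, shedding and degradation had 7 tested of 16, with 1 higher and 0 lower on N-SFMA, 2 higher and 0 lower on L-SFMA, and 1 higher and 2 lower on NL-SFMA. Ids, a lysosomal sulfatase in the breakdown of heparan and dermatan sulfate, was at 27.0, 54.8, 63.1 and 108 FPKM, and its log2 difference on NL-SFMA was 1.95 as measured and 1.89 with the length trend removed. Naglu (7.73, 5.56, 6.74 and 3.05 FPKM) and Hexa (10.9, 9.54, 9.37 and 5.43 FPKM), lysosomal hexosaminidases, were lowest on NL-SFMA, and Idua (1.10, 1.15, 2.58 and 0.956 FPKM) was the other gene higher on L-SFMA. The 6 Adamts proteases of the list, which cleave lecticans, were all under the filter.

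**Figure D5:**
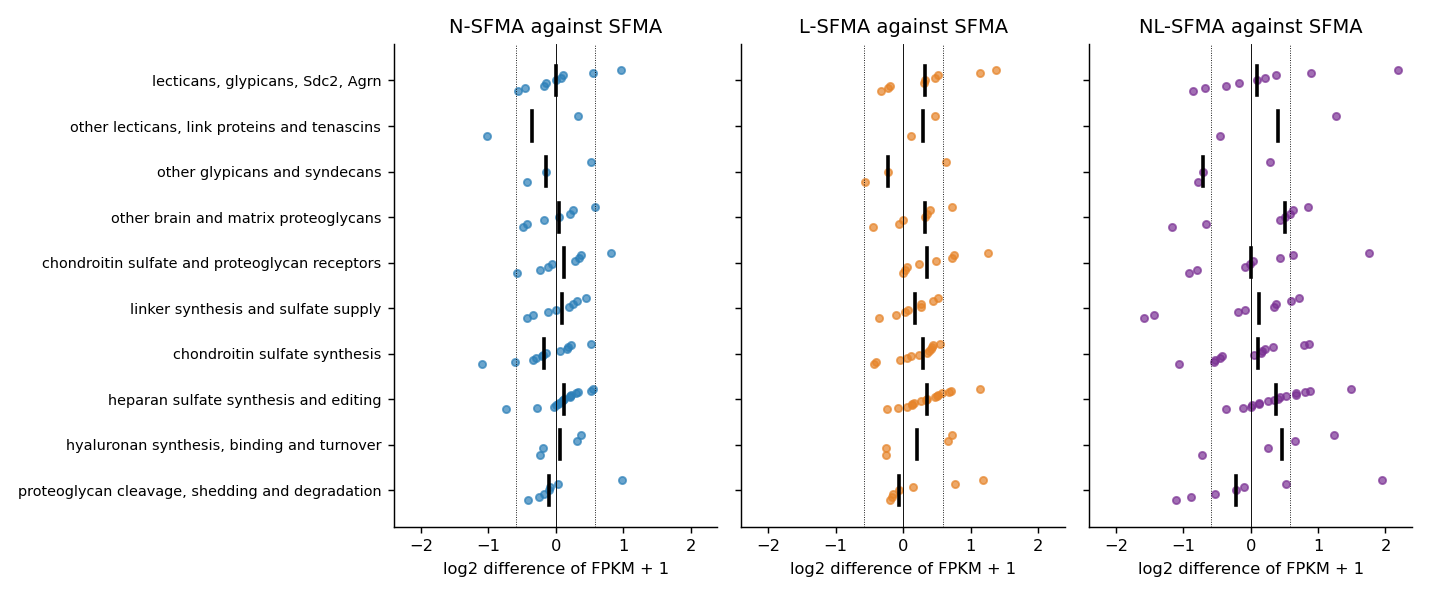
log2 difference of FPKM + 1 from SFMA for each tested gene (points) of the proteoglycan genes (top row) and 9 further lists, with list medians (bars) and the 1.5-fold limits (dotted lines). On NL-SFMA, heparan sulfate synthesis and editing has 5 of 16 tested genes past the upper limit and 0 past the lower. Over all tested genes the shares are 21.6% and 29.3%. With the length trend removed (not drawn), the list has 4 and 1, and the shares are 19.1% and 18.9%.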

How the data were processed

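Poly(A) RNA libraries (NEBNext Ultra, 1.5 µg of input, per the labels' protocols) were analysed from 4 deposited tables, 1 per hydrogel. The deposited counts are whole-number reads per gene; the submitters' processing notes name HISAT2, HTSeq 0.13.5 and the builds mRatBN7.2 and GRCh38, with no roles, and no strand setting is stated. The FPKM deposited by the authors are counts scaled to model length and library size: model lengths recovered from both columns were whole within 1e-06 bases. Depth was 14172205 to 17553098 counts, and a floor of 3 counts is 0.171 to 0.212 CPM. No molecular identifiers are described, so PCR copies may be counted more than once, and intervals and floors cover counting error only.

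Levels were compared as log2(FPKM + 1), which understates the change of low genes. Folds are CPM ratios with exact Clopper-Pearson intervals. The additive model used edgeR 4.0.16 (TMM, filterByExpr, Benjamini-Hochberg 0.05). Alternatives used other pseudocounts, scalings and size rules, DESeq2 1.42.0, limma 3.58.1 and removal of the length trend (lowess, fraction 0.3). Scripts were tested on simulated data. Beside the 10 genes, the text names up to 3 genes per list with the largest differences past 1.5-fold from SFMA at an FPKM of at least 5, other genes behind the list counts against SFMA, and the 2 nearest profiles per gene; Ext1, Ext2, Lrp4, Musk, Dag1, Hs3st1, Hs3st4 and the marker genes named singly were added after their values were seen. The members and lists were chosen with earlier results of these data known.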

Additional observations from a re-analysis of the deposited data

Results flagged for a closer look

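For 7 of the 9 tested genes the fold for one letter pointed one way without the other letter and the opposite way with it, each with a counting interval that excludes 1. By the same rule, which genes with many reads meet more readily, this held for 18.2% of the 12394 tested genes. Each direction rests on 1 library per hydrogel, so the difference between the folds was not tested. Sdc2 went from 0.629 (N-SFMA over SFMA) to 1.76 (NL-SFMA over L-SFMA) for N, and from 0.766 to 2.15 for L. Gpc4 went from 0.885 to 1.24 for N and from 0.865 to 1.22 for L. Gpc1 went the other way, from 1.08 to 0.706 for N and from 1.25 to 0.813 for L. For L, Gpc2 went from 1.39 to 0.542 and Bcan from 1.28 to 0.643. For N, Agrn went from 1.52 to 0.838 and Ncan from 1.05 to 0.809. With the length trend removed, the log2 differences for N no longer pointed opposite ways in Ncan (-0.13 and -0.35), and did in Gpc6 (-0.44 and 0.02). Those for L then did in Ncan (0.15 and -0.07) and Agrn (0.40 and -0.15). These signs were read without an interval. The folds of a gene for N and for L share all 4 libraries.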

How the results depend on the processing

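Each count by the 1.5-fold rule was recomputed with 1 choice changed at a time. For the additive model, the DESeq2 fit (18755 genes) and the limma fit (12394 genes, on log2(FPKM + 1)) also differ from the edgeR fit (13737 genes) in filter and scaling. Of the 54 differences between hydrogels (9 genes, 6 comparisons), TMM and DESeq2 scaling kept the sign of 54, and removal of the length trend of 48; Agrn on NL-SFMA against SFMA was reversed by it (-0.08). Ncan in 3 comparisons, Agrn in NL-SFMA against N-SFMA and Gpc6 in NL-SFMA against L-SFMA also changed sign. The number of the 9 genes past 1.5-fold on N-SFMA against SFMA was 1, and became 4 with a pseudocount of 0.1 FPKM, 2 with TMM, 2 with DESeq2 size factors and 0 with a 2-fold rule; with the length trend removed it stayed at 1, which was then Sdc2, lower, in place of Vcan. On L-SFMA against SFMA it went from 2 to 1 with the length trend removed. With the 2-fold rule, NL-SFMA went from 4 to 1 against SFMA, from 3 to 1 against N-SFMA and from 4 to 1 against L-SFMA. L-SFMA against N-SFMA went from 0 to 1 with a pseudocount of 0.1 FPKM. In the additive model, calls went from 1 to 0 for N and from 2 to 0 for L with the length offset, and from 2 to 1 for L with DESeq2 size factors in edgeR. The cause was not tested.

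Over all genes, calls for N (399 higher and 486 lower) were 196 and 205 with DESeq2 size factors in edgeR, 233 and 162 with DESeq2, 156 and 674 with limma, and 48 and 30 with the length offset. Calls for L (1012 and 832) were 688 and 467 with DESeq2 and 172 and 140 with the length offset. Higher genes were 25.7% of those past 1.5-fold in NL-SFMA against L-SFMA, 41.6% with TMM, 47.0% with DESeq2 size factors and 46.1% with the length trend removed, as these scalings moved the median of all genes from -0.13 to -0.02, 0.01 and 0.01. In L-SFMA against N-SFMA they were 73.4%, 55.6% with TMM and 52.7% with DESeq2 size factors. With the 2-fold rule 106 genes were higher and 328 lower on N-SFMA than on SFMA, 412 and 377 on L-SFMA, 1251 and 1872 on NL-SFMA, 267 and 692 in NL-SFMA against N-SFMA, 108 and 851 against L-SFMA, and 47 and 31 in L-SFMA against N-SFMA. L-SFMA against N-SFMA had 372 and 135 by the 1.5-fold rule and 965 and 286 with a pseudocount of 0.1 FPKM, and L-SFMA against SFMA had 1836 and 1371, or 1006 and 924 with the length trend removed. No paired analysis was possible because each hydrogel has 1 library with no replicate number, and no library could be left out because 3 libraries leave the additive model no residual degree of freedom. Depth limited Hapln1, at or under the floor of 3 counts, and Gpc6, with 80 to 146 reads.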
